A study of Mus musculus with 9 samples.

Results

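The mitochondrial genome transcripts are the 37 genes that the count tables place on the mitochondrial chromosome (MT), out of 53801 genes in all. They comprise 13 mRNAs, 2 rRNAs and 22 tRNAs. At least 1 count was recorded for all 13 mRNAs, both rRNAs and 13 of the 22 tRNAs. The libraries were made from monocytes/macrophages of male C57BL/6J mice aged 9 weeks, sorted as CD11c-Ly6G-CD11b+CD45high. In the stroke brain group, cells came from the ipsilesional hemisphere 5 days after distal middle cerebral artery occlusion (dMCAO), a permanent focal ischemia. The stroke blood group held cells from the circulation at the same day after dMCAO, and the sham blood group held cells from the circulation of sham-operated mice, for which no day is given. Each group had 3 libraries, and each brain library pooled 5 mice whereas each blood library came from 1 mouse. Brain tissue was dissociated and fractionated on Percoll and blood on Ficoll, so tissue and preparation cannot be told apart. CD45high cells of the brain can include activated resident microglia as well as infiltrating monocytes. No brain library of sham-operated mice was analysed here.

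Mitochondria keep a small circular genome, of which both strands are transcribed as long precursors that are cut at the tRNAs into separate mRNAs, rRNAs and tRNAs. The mRNAs encode core subunits of respiratory complexes I, III, IV and V, and the rRNAs and tRNAs build the translation apparatus of the organelle. All other subunits, and all of complex II, are encoded in the nucleus. Macrophages are known to shift between oxidative phosphorylation and glycolysis with their activation state, and of the cells that can accompany blood preparations, mature red cells lack mitochondria and platelets carry them.

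Total counts per library lay between 18475118 and 22623578, so that 3 counts, taken as the limit of detection, corresponded to 0.133 to 0.162 CPM (the counts of a gene scaled to a common library total). The intervals and limits given here cover counting error only, since the reads carry no molecular identifiers. All 10 monocyte and macrophage markers listed were detected in every library, and their summed level was 47431 to 52984 CPM in the brain, 98558 to 109580 CPM in stroke blood and 89705 to 125644 CPM in sham blood. The summed level of 8 microglia markers was 1299 to 3709 CPM in the brain, against 135 to 205 CPM in blood, where *Sall1* was at 0. The summed level of the 7 erythroid markers found, of 8 listed, was 4.16 to 14.5 CPM in the brain, with *Slc4a1* at 0, and 13801 to 18457 CPM in stroke blood. In sham blood it was 1223 CPM in replicate 1, 34182 CPM in replicate 2 and 30425 CPM in replicate 3. The summed level of 10 platelet markers was 39.3 to 84.4 CPM in the brain, with *Gp5* at 0. Of this sum, *Pf4* alone gave 35.0, 56.5 and 78.7 CPM in brain replicates 1, 2 and 3. In stroke blood the platelet sum was 383 to 484 CPM. In sham blood it was 23.5 CPM in replicate 1 and 568 and 815 CPM in replicates 2 and 3. Sham blood replicate 1 thus stood apart from the other sham libraries in red cell and platelet RNA. Neutrophil markers summed to 1112 to 1755 CPM in the brain, 644 to 1109 CPM in stroke blood and 1016 to 3288 CPM in sham blood, with sham blood replicate 3 the highest. The nuclear-retained RNAs *Malat1* and *Neat1* summed to 187 to 355 CPM in the brain, 167 to 287 CPM in stroke blood and 109 to 166 CPM in sham blood. The part of these differences in the mitochondrial values was not tested in the fits. In bulk samples, fewer cells of a type and less RNA per cell cannot be told apart, nor can fewer mitochondria and less RNA per mitochondrion.

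Mitochondrial transcripts took the largest share of the counts in stroke blood, an intermediate share in sham blood and the smallest share in the brain. In the brain the 37 genes held 0.727% of the counts in replicate 1, 0.379% in replicate 2 and 0.438% in replicate 3. In stroke blood they held 2.49%, 1.52% and 2.64%, and in sham blood 1.23%, 0.837% and 1.01%. No library of a group reached the range of another group. The mean share was 0.515% ± 0.186 in the brain, 2.21% ± 0.607 in stroke blood and 1.03% ± 0.199 in sham blood (SD, n = 3 each). Brain macrophages thus had a share 4.30-fold lower than stroke blood and 2.00-fold lower than sham blood, and stroke blood was 2.15-fold higher than sham blood. Each of these 3 comparisons gave p = 0.1 in an exact two-sided permutation test, which is the smallest p that 3 libraries against 3 can give, and p = 0.1 after Benjamini-Hochberg adjustment over the 3. The 95% Wilson intervals of single shares were narrow, from 0.723% to 0.731% in brain replicate 1 for example, so counting error was far smaller than the spread between replicates.

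**Figure D1:**
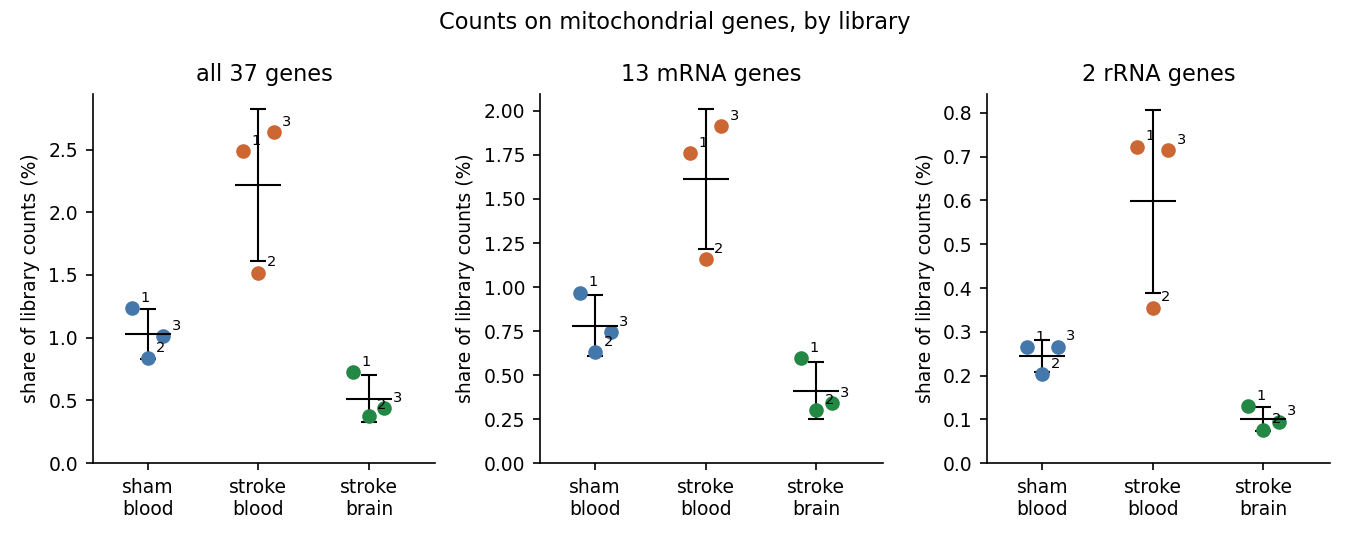
Share of each library's counts (%, vertical axis) on all 37 mitochondrial genes, the 13 mRNAs and the 2 rRNAs, by group. Points are libraries labelled by replicate number, and bars are mean ± SD (n = 3). The 3 stroke blood libraries sit between 1.52% and 2.64% in the left panel, above every sham blood and brain library.

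The order of the groups was the same when the red cell markers were taken out of the total. The mean share then was 0.515% in the brain, 2.25% in stroke blood and 1.05% in sham blood. Without sham blood replicate 1, the library with few red cell and platelet transcripts, the ratio of stroke blood to sham blood was 2.40, and the brain share was 1.80-fold lower than that of sham blood. Without brain replicate 1, which had the highest share of the brain libraries, the brain share was 5.42-fold lower than that of stroke blood.

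Messenger RNAs held most of the mitochondrial counts in every group, but brain and stroke blood did not overlap in mRNA or rRNA proportion. The mRNA share of all counts was 3.91-fold lower in the brain than in stroke blood, and the rRNA share 5.94-fold lower. Messenger RNAs made up 79.7% ± 1.95 of the mitochondrial counts in the brain, 73.2% ± 2.85 in stroke blood and 75.8% ± 2.53 in sham blood (SD, n = 3). Ribosomal RNAs made up 19.9% ± 1.84, 26.5% ± 2.88 and 24.0% ± 2.46 in the same order. In the brain, the rRNA proportion was 17.96% to 21.6%, below the 23.4% to 29.1% of stroke blood, and it overlapped that of sham blood, 21.4% to 26.3%. Transfer RNAs held between 0.116% and 0.467% of the mitochondrial counts of a library.

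Within the genome, the mRNAs fell into a high and a low set. Compared per length, as mean CPM per kb, *mt-Nd1* (complex I) led in sham blood with 1640 ± 431, followed by *mt-Cytb* (cytochrome b of complex III) with 1553 ± 289 and *mt-Co1* (the catalytic subunit of complex IV) with 1482 ± 253 (SD, n = 3). These neighbours differed by less than their spread. The other complex I mRNAs outside the middle of the genome were lower, from 569 CPM per kb for *mt-Nd2* down to 233 for *mt-Nd6*. Below them all lay a run of 6 neighbouring mRNAs, *mt-Co2*, *mt-Atp8*, *mt-Atp6*, *mt-Co3*, *mt-Nd3* and *mt-Nd4l*, at 0.275 to 23.1 CPM per kb in sham blood. They stood at 0.836 to 55.9 CPM per kb in stroke blood and 0.224 to 6.87 in the brain. The 5 mRNAs *mt-Nd1*, *mt-Nd2*, *mt-Nd5*, *mt-Nd6* and *mt-Cytb* ranged from 233 to 1640 CPM per kb in sham blood, 629 to 3668 in stroke blood and 102 to 978 in the brain, so that the sets did not overlap in any group.

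**Figure D2:**
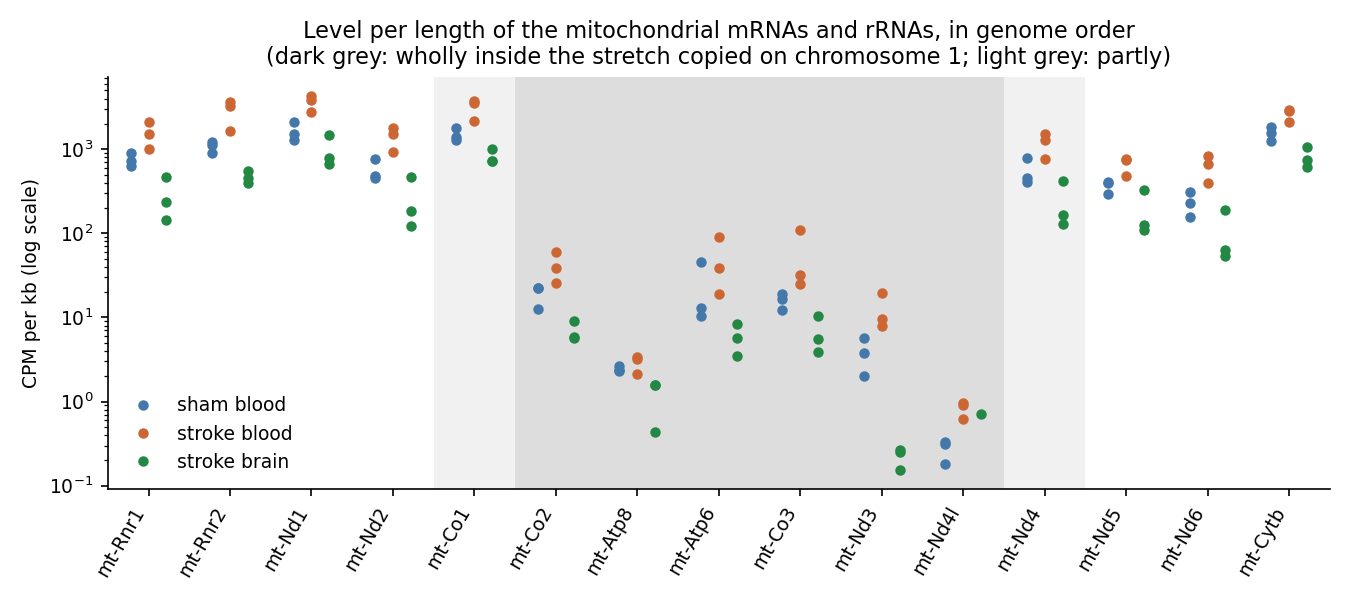
Level per length (CPM per kb, log axis) of the 13 mRNAs and 2 rRNAs in genome order; each point is a library, coloured by group, and libraries with 0 counts (*mt-Nd4l* in brain replicates 2 and 3) are not drawn. The 6 mRNAs on dark grey lie below all other genes in each group, and light grey marks *mt-Co1* and *mt-Nd4*.

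The run of low mRNAs coincided with a stretch of the genome that has a nearly identical copy in the nucleus. In GENCODE M21 (GRCm38), 7 pseudogenes on the minus strand of chromosome 1 aligned in unbroken order to positions 6390 to 11042 of MT, from the end of *mt-Co1* to the first part of *mt-Nd4*. They lie at chr1:24611535-24616188, a length of 4654 bases against 4653 bases in MT. Of 4136 MT bases covered by these alignments, 4134 were identical. The 2 differences were T3C in *mt-Nd3* against *Gm28438* and A1066T in *mt-Co1* against *Gm29216*, with the mitochondrial base first and positions counted from 1 at the start of the mitochondrial gene. The first aligned bases are shown for *mt-Co2*, which had no difference from its copy, for *mt-Nd3*, and for *mt-Cytb*, which lies outside the stretch and whose closest copy, *Gm11410* on chromosome 4, has 92.9% identity. Capitals mark bases that differ within a pair, and the sequences are from GENCODE M21 transcripts, for MT 7013 to 7072, 9459 to 9518 and 14146 to 14205 on the plus strand, chr1:24615506-24615565 and chr1:24613060-24613119 on the minus strand, and chr4:80003990-80004049 on the plus strand.
mt-Co2: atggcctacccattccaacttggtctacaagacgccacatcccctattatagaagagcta
Gm28661: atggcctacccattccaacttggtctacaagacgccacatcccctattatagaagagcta
mt-Nd3: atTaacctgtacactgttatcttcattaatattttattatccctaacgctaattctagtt
Gm28438: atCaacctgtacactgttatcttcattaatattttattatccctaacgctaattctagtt
mt-Cytb: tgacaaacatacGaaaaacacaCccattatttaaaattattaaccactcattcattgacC
Gm11410: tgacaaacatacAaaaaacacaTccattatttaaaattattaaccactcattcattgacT

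All 6 low mRNAs lie wholly inside the copied stretch. Of the windows of 75 bases, the length of a read, 97.8% to 99.9% in *mt-Co2*, *mt-Atp6*, *mt-Co3*, *mt-Nd3* and *mt-Nd4l* also occurred in a nuclear transcript. *mt-Atp8* had no such window, because no annotated pseudogene spans it, although it lies within the copied positions. In *mt-Co1* and *mt-Nd4*, of which 31.3% and 63.6% lie inside, 39.8% and 61.5% of windows were shared, and in the 5 mRNAs outside at most 5.71%. How reads that match both places were counted is not given in the sources used here, and the part of the copy in the low counts was not tested. The pseudogenes were near their members in counts for some pairs and far below them for others. In sham blood, *mt-Co3* had 306, 205 and 240 counts and its copy *Gm28437* 581, 464 and 462, and in the brain they had 155, 68 and 93 against 194, 92 and 117. For *mt-Co1* and *mt-Nd4*, which lie partly inside, the copies were far lower: *mt-Nd4* had 22256, 11847 and 11541 counts in sham blood and *Gm28439* 42, 11 and 23, and *mt-Co1* had 56023, 41900 and 40215 counts and *Gm29216* 567, 192 and 236. The 7 pseudogenes together held 0.347% to 1.28% as many counts as the 37 genes, so adding them moved the brain share from 4.30-fold to 4.33-fold below stroke blood. With only the 7 mRNA and rRNA genes wholly outside the stretch, the brain share was 4.39-fold lower than stroke blood and 2.03-fold lower than sham blood. Levels of the 6 mRNAs are therefore given as uncertain.

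Brain macrophages had lower levels of mitochondrial mRNAs and rRNAs than stroke blood monocytes, across all 4 complexes, with complex V represented only by *mt-Atp6*. That mRNA, *mt-Co2*, *mt-Co3* and *mt-Nd3* lie wholly inside the copied stretch, so their levels are uncertain. Of the 37 genes, 17 passed the filter on low counts, and 16 of these were called lower (edgeR quasi-likelihood test, adjusted p below 0.05) and none higher. Among all 13189 genes tested, 13.1% were called lower. All 16 also passed the threshold for a differentially expressed gene (DEG), an absolute log2 fold change above 1, which 7.86% of all genes did in the lower direction. The median log2 fold change was -2.62 over the 11 mRNAs tested, against 0.06 over all genes, and it was also -2.62 with *mt-Nd3* at its bound. Over only the 5 mRNAs wholly outside the copied stretch, the median was -2.07. In all 16 the brain and stroke blood libraries did not overlap in CPM, as in 17.3% of all genes in the lower direction.

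Among the complex I mRNAs, *mt-Nd1* had 1409, 647 and 751 CPM in the brain against 3691, 2686 and 4155 CPM in stroke blood, a log2 fold change of -2.07 (SE 0.30; edgeR adjusted p = 0.0012). *mt-Nd2* had 484, 128 and 191 CPM in the brain and 1556, 973 and 1869 in stroke blood (log2 fold change -2.62, SE 0.46). In both genes brain replicate 1 was the highest brain library and still lay below every stroke blood library. *mt-Nd4* and *mt-Nd5* followed at -2.48 (SE 0.44) and -1.9996 (SE 0.39). *mt-Nd6*, the only mRNA coded on the other strand, had 97.5, 27.9 and 32.9 CPM against 342, 206 and 432 CPM (-2.80, SE 0.48). The adjusted p of *mt-Nd2*, *mt-Nd4*, *mt-Nd5* and *mt-Nd6* lay between 0.00258 and 0.00498. *mt-Nd3* was at 1, 2 and 2 counts in the brain and at 69, 59 and 126 counts in stroke blood, which is at least 29.8-fold lower when the floor of 3 counts per brain library is used. *mt-Nd4l* had at most 6 counts in any library and did not pass the filter.

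For complex III, *mt-Cytb* had 1229, 702 and 848 CPM in the brain against 3345, 2420 and 3252 CPM in stroke blood (log2 fold change -1.86, SE 0.23; edgeR adjusted p = 0.000523). It had the smallest fall of the 11 mRNAs. For complex IV, *mt-Co1* had 1535, 1115 and 1127 CPM in the brain and 5424, 3318 and 5813 in stroke blood (-2.11, SE 0.25; edgeR adjusted p = 0.000364). *mt-Co2* had 6.24, 3.89 and 3.98 CPM against 26.2, 17.5 and 40.8 (-2.75, SE 0.36), and *mt-Co3* 8.26, 3.01 and 4.30 against 25.2, 19.8 and 86.5 (-3.26, SE 0.61). Stroke blood replicate 3 was the highest library for both. For complex V, the ATP synthase, *mt-Atp6* had 5.70, 2.39 and 3.84 CPM against 26.2, 12.99 and 61.3 CPM (-3.25, SE 0.57), while *mt-Atp8* did not pass the filter with 6, 2 and 7 counts against 9, 15 and 12.

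The rRNAs fell in the same range as the mRNAs. *mt-Rnr1*, the small subunit rRNA, had 441, 137 and 228 CPM in the brain against 2035, 968 and 1458 in stroke blood (log2 fold change -2.63, SE 0.42; edgeR adjusted p = 0.00177). *mt-Rnr2*, the large subunit rRNA, had 865, 632 and 719 CPM against 5194, 2586 and 5691 (-2.77, SE 0.30; edgeR adjusted p = 0.000247). The call of all 13 mRNAs and rRNAs tested held without each library in turn. Over those fits the median log2 fold change of the mRNAs was between -3.07 and -2.23.

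**Figure D3:**
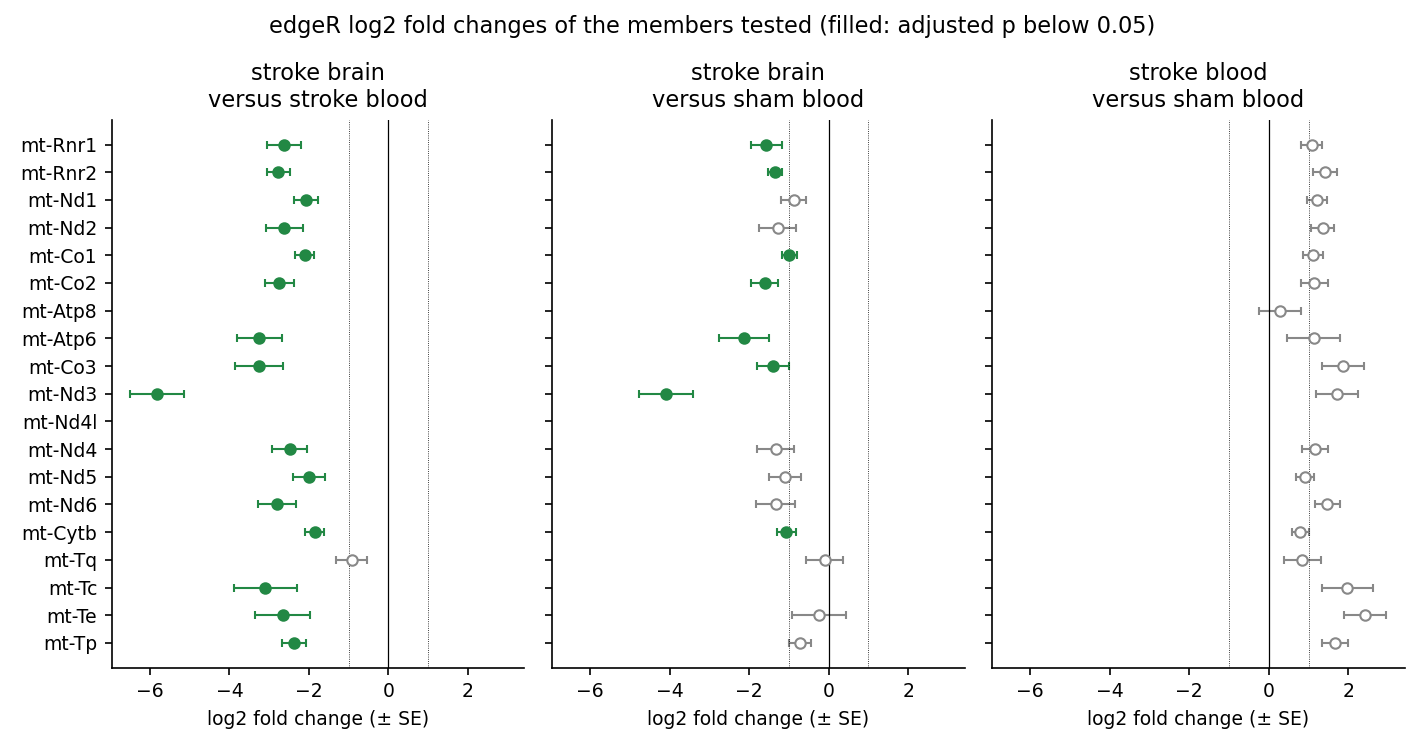
edgeR log2 fold change (± SE, horizontal axis) of the members that passed the filter in each comparison, mRNAs and rRNAs in genome order followed by 4 tRNAs. Filled points have an adjusted p below 0.05, which 16 of 17, 8 of 16 and 0 of 18 members did from left to right; dotted lines mark a log2 fold change of 1 in either direction, and the point of *mt-Nd3* against the brain rests on at most 2 counts per brain library.

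Against sham blood, the brain differed in the same direction by smaller amounts. Of 16 members tested, 8 were called lower and none higher, beside 7.68% of all 13020 genes called lower. These were *mt-Rnr1*, *mt-Rnr2*, *mt-Co1*, *mt-Co2*, *mt-Co3*, *mt-Atp6*, *mt-Nd3* and *mt-Cytb*, and all but *mt-Co1* were DEGs, as 3.67% of all genes were in the lower direction. *mt-Rnr2* had a log2 fold change of -1.35 (SE 0.18; edgeR adjusted p = 0.00338) from 1945, 1431 and 1796 CPM in sham blood. *mt-Co1* had -0.99 (SE 0.19) from 2725, 1969 and 2177 CPM, and *mt-Cytb* -1.07 (SE 0.24) from 2100, 1439 and 1790 CPM. *mt-Rnr1* (-1.56, SE 0.39), *mt-Co2* (-1.61, SE 0.33), *mt-Co3* (-1.40, SE 0.40) and *mt-Atp6* (-2.12, SE 0.62) were also lower, the last with an edgeR adjusted p of 0.0486. For *mt-Atp6*, sham blood replicate 1 was at 31.3 CPM and the others at 7.05 and 8.88. *mt-Nd3*, at 41, 15 and 24 counts in sham blood, stood at least 9.27-fold above the brain. Levels of *mt-Nd3*, *mt-Co2*, *mt-Co3* and *mt-Atp6*, which lie wholly inside the copied stretch, are uncertain here too.

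The 5 complex I mRNAs *mt-Nd1*, *mt-Nd2*, *mt-Nd4*, *mt-Nd5* and *mt-Nd6* were not called against sham blood. Their log2 fold changes were -0.88, -1.28, -1.33, -1.10 and -1.33, with edgeR adjusted p between 0.0806 and 0.0939. In each of them brain replicate 1 overlapped the sham libraries. For *mt-Nd2* the brain libraries were at 484, 128 and 191 CPM and the sham libraries at 803, 476 and 494 CPM. Over the 11 mRNAs the median was -1.33, against 0.01 over all genes, and over the 5 wholly outside the copied stretch it was -1.10. The count of 8 genes fell to 4 without sham blood replicate 1, to 3 without sham blood replicate 3, to 3 without brain replicate 2 and to 2 without brain replicate 3, and it was 12 without brain replicate 1. DESeq2 called 13 genes lower, beside 8.32% of all genes.

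Brain replicate 1 also differed from the other brain libraries in the proportions of some of its transcripts. The ratio of *mt-Nd2* to *mt-Co1* counts was 0.315 in brain replicate 1, but 0.115 and 0.170 in replicates 2 and 3. In blood this ratio was 0.227 to 0.295 in sham and 0.287 to 0.322 in stroke libraries. The same held for *mt-Nd4* to *mt-Co1*, at 0.380 in brain replicate 1, 0.159 and 0.203 in the others, and 0.283 to 0.397 in blood. For *mt-Nd6* to *mt-Co1* the brain ratios were 0.0635, 0.0251 and 0.0292, and those of blood 0.0414 to 0.0743. In these 3 ratios brain replicate 1 lay within the range of blood and replicates 2 and 3 below it. The other mRNA ratios computed did not divide the libraries in this way. For *mt-Nd1* to *mt-Co1* the brain ratios were 0.918, 0.580 and 0.667 and those of blood 0.627 to 0.809, so that replicate 1 lay above blood, replicate 2 below it and replicate 3 within it. For *mt-Cytb* to *mt-Co1* all 3 brain ratios, 0.800, 0.630 and 0.753, lay within the blood range of 0.559 to 0.822. The ratio of the rRNAs, *mt-Rnr1* to *mt-Rnr2*, was 0.510 in brain replicate 1, above all blood libraries (0.256 to 0.483), and 0.217 and 0.317 in the others. The summed microglia markers were 1299 CPM in brain replicate 1 and 1999 and 3709 CPM in replicates 2 and 3. The sample number in the deposited names was 8 for brain replicate 1 and 3 and 4 for the others, and number 4 also occurs in sham blood. The part of these features in the ratios was not tested.

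**Figure D4:**
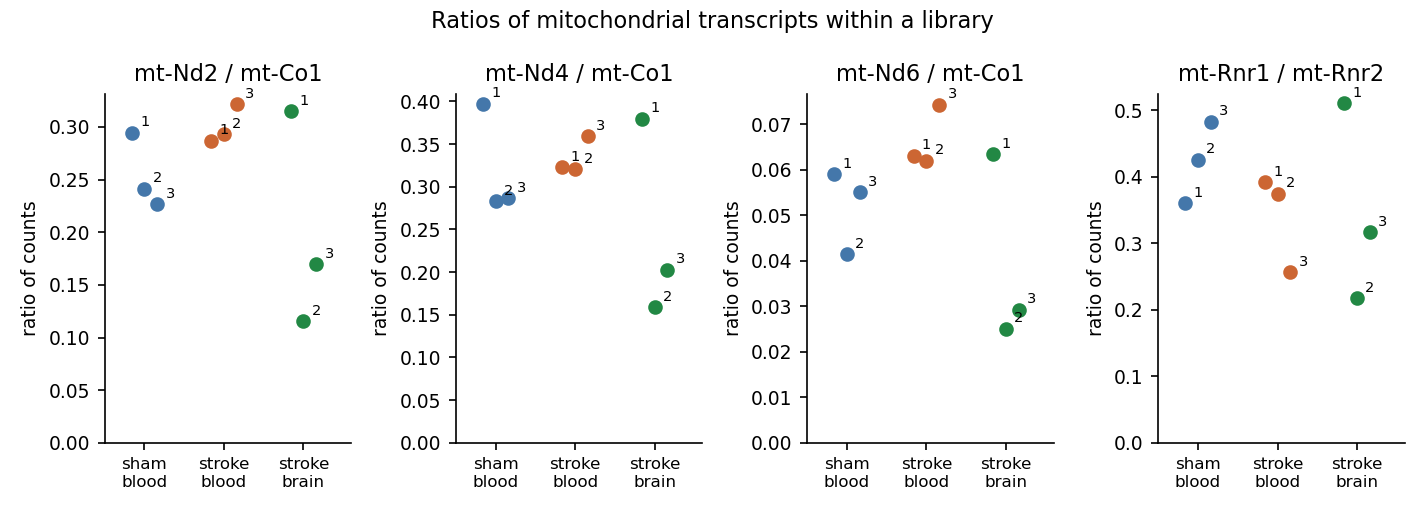
Ratio of the counts of a pair of mitochondrial transcripts within each library (vertical axis), by group, with replicate numbers beside the points. Brain replicate 1 sits with the blood libraries in the first 3 panels, at 0.315 for *mt-Nd2* to *mt-Co1*, and brain replicates 2 and 3 sit below them.

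In stroke blood, mitochondrial transcripts were higher than in sham blood in level, but edgeR called none of them. Of 18 members tested, all 18 had a positive log2 fold change, with a median of 1.15 over the 12 mRNAs against -0.03 over all genes. In 14 of the 18 the 3 stroke libraries lay above the 3 sham libraries, as in 8.23% of all genes, and 15 had an unadjusted p below 0.05, as 6.51% of all genes did in that direction. The adjusted p lay between 0.285 and 0.836, and of all 12664 genes tested edgeR called 1 higher (0.0079%). DESeq2 called 12 members higher, beside 0.986% of all genes. edgeR without the filter on low counts called 13 members higher, and the share of all genes called in that fit was not computed.

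The largest differences among the mRNAs and rRNAs were those of *mt-Co3*, *mt-Nd3* and *mt-Nd6*. *mt-Co3* had 25.2, 19.8 and 86.5 CPM in stroke blood against 14.9, 9.63 and 12.99 CPM in sham blood, a log2 fold change of 1.86 (SE 0.53; edgeR adjusted p = 0.287). Without stroke blood replicate 3, the highest library, it was 0.86. *mt-Nd3* had 3.33, 2.74 and 6.80 CPM against 1.99, 0.705 and 1.30 (1.72, SE 0.53; edgeR adjusted p = 0.3). *mt-Nd6* had 342, 206 and 432 CPM against 161, 81.5 and 120 (1.48, SE 0.33, edgeR adjusted p = 0.285). The groups did not overlap in *mt-Co3*, *mt-Nd3* or *mt-Nd6*, as in 8.23% of all genes. The other mRNAs ranged from 0.28 for *mt-Atp8* to 1.35 for *mt-Nd2*. Stroke blood replicate 3 also stood out in a copy of *mt-Co1* on chromosome 2, *Gm13340*, with 97.6% identity. It had 4250 counts there, against 196 and 269 counts in the other stroke blood libraries.

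The tRNAs carried few counts, nearly all of them on genes coded on a single strand. The 8 tRNAs coded on the light strand held 5236 of the counts over the 9 libraries, 99.1% of all tRNA counts, and the 14 on the heavy strand held 48. Of these 14, 6 had any count and none exceeded 10 in a library. *mt-Tp* (proline) had 2938 counts in total and *mt-Tq* (glutamine) 1853, followed by *mt-Te* with 250, *mt-Tc* with 157 and *mt-Tl1* (heavy strand) with 26. The nearest gene of the same strand is 1216 bases from *mt-Tp* and 1175 bases from *mt-Tq*, and it is 1543 bases from *mt-Ts1*, which had 6 counts in total. The coding strand of a gene does not show from which strand its counted reads came. The strand setting of the counting is not given in the sources used here. Reads of a precursor and of a mature tRNA, or of either strand, cannot be told apart. The sequences of both, from GENCODE M21, are shown from 5′ to 3′ on the minus strand of MT, 15356 to 15422 and 3772 to 3842.
mt-Tp: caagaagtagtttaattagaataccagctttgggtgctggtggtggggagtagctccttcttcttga
mt-Tq: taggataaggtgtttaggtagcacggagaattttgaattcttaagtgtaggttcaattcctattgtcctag

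Both are shorter than a read. *mt-Tp* behaved like the mRNAs, with 123, 140 and 168 counts in the brain against 513, 526 and 853 in stroke blood (log2 fold change -2.37, SE 0.31; edgeR adjusted p = 0.000607). *mt-Tc* (-3.10, SE 0.79) and *mt-Te* (-2.66, SE 0.69) were also DEGs, with at most 8 and 19 counts in a brain library. The call of *mt-Tc* was lost without stroke blood replicate 1 or 3 or brain replicate 2 or 3, and that of *mt-Te* without stroke blood replicate 3 or brain replicate 2 or 3. *mt-Tq* was the only member tested that was not called, with 106, 243 and 182 counts in the brain and 234, 201 and 401 in stroke blood (-0.93, SE 0.39; edgeR adjusted p = 0.0987). Its groups overlapped. Against sham blood, with 70, 201 and 215 counts, *mt-Tq* had a log2 fold change of -0.09 (SE 0.46), *mt-Te* -0.25 (SE 0.68) and *mt-Tp* -0.72 (SE 0.28), and none was called. Between stroke and sham blood, where edgeR called none, *mt-Te* had the largest log2 fold change of the members tested (2.42, SE 0.53), from 11, 9 and 15 counts in sham blood to 52, 42 and 88 in stroke blood. *mt-Tc* had 1.97 (SE 0.63), *mt-Tp* 1.67 (SE 0.32) and *mt-Tq* 0.84 (SE 0.47). The edgeR adjusted p of these 4 tRNAs lay between 0.285 and 0.481. The groups overlapped in *mt-Tq* but not in *mt-Tc*, *mt-Te* or *mt-Tp*, the last at 196, 174 and 245 counts in sham blood.

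Nuclear genes for the same respiratory complexes were also lower in the brain than in stroke blood, by smaller amounts. Of 74 nuclear subunit genes of complexes I to V, 46 were called lower and none higher, beside 13.1% of all genes called lower. Their median log2 fold change was -0.62, and 12 were DEGs, beside 7.86% of all genes in the lower direction. By complex, 21 of 36 were called lower for complex I, 0 of 4 for complex II, 5 of 9 for complex III, 9 of 10 for complex IV and 11 of 15 for complex V. The mitochondrial members had medians of -2.55 for complex I and -2.75 for complex IV, and every one tested lay below all nuclear subunits of its complex. The complex IV median is the value of *mt-Co2*, which like *mt-Co3*, *mt-Nd3* and *mt-Atp6* lies wholly inside the copied stretch and is uncertain. *mt-Co1*, which lies partly inside, was at -2.11. *Ndufa6* fell by 1.46 and *Ndufb3* by 1.06 on the log2 scale in complex I, *Uqcrh* by 1.10 in complex III, *Cox7c* by 1.20 and *Cox4i1* by 1.00 in complex IV, and *Atp5e* by 1.14 and *Atp5g2* by 1.15 in complex V. Their edgeR adjusted p lay at or below 0.0037. The summed level of all 74 genes was 11618 to 12836 CPM in the brain, 14011 to 17012 CPM in stroke blood and 13197 to 15221 CPM in sham blood. Against sham blood 20 of the 74 were called lower (median -0.35), beside 7.68% of all genes, and between stroke and sham blood none was called by edgeR (median 0.26).

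**Figure D5:**
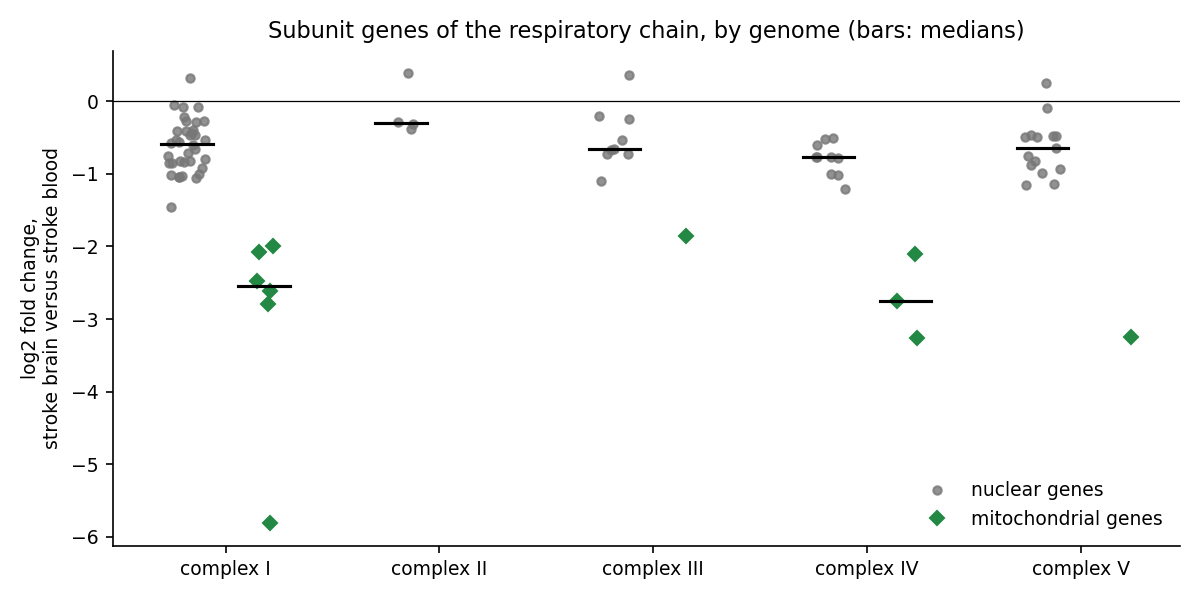
edgeR log2 fold change of stroke brain versus stroke blood (vertical axis) for the subunit genes of each respiratory complex. Grey circles are nuclear genes and green diamonds mitochondrial genes that passed the filter, with bars at the medians (-0.59 and -2.55 for complex I); all mitochondrial points lie below the nuclear points of their complex.

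Genes that make and maintain mitochondrial RNA did not show a common direction. Of 29 factors of mitochondrial transcription and RNA processing tested, 4 were called higher in the brain than in stroke blood, beside 17.5% of all genes. Another 1 was called lower, beside 13.1% of all genes, and the median log2 fold change of the 29 was -0.0043. *Grsf1*, an RNA-binding protein of mitochondrial RNA granules, was at 56.7 ± 15.4 CPM in the brain against 20.6 ± 6.62 in stroke blood (log2 fold change 1.30, SE 0.30). *Fastkd2*, which binds mitochondrial rRNA, was at 24.995 ± 6.10 against 10.9 ± 1.36 CPM (1.05, SE 0.25; SD, n = 3). None of 12 genes of mitochondrial DNA replication and 11 mitochondrial translation factors was called by edgeR in this comparison. Of all genes, 17.5% were called higher and 13.1% lower. Of 77 genes for mitochondrial ribosomal proteins, 22 were called lower, beside 13.1% of all genes, and 1 higher (median -0.34), and *Mrpl33* and *Mrpl30* fell by 1.26 and 1.34. Of 7 biogenesis regulators tested, 1 was called higher, a share near the 17.5% of all genes, namely *Pprc1*, a coactivator of the PGC-1 family (1.01, SE 0.30). Of 11 mitophagy genes, 1 was called lower in the brain, beside 13.1% of all genes, and 1 higher, beside 17.5%. These were the receptor *Bnip3l* (-1.19, SE 0.15) and the adaptor *Sqstm1* (1.02, SE 0.16). *Bnip3l* is also abundant in maturing red cells, whose markers were at 4.16 to 14.5 CPM in the brain libraries, and their part in its difference was not tested.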

How the data were processed

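RNA of sorted monocytes/macrophages was measured in 9 libraries, 3 each of stroke brain, stroke blood and sham blood, grouped by the tissue and procedure of their labels. SMART-Seq HT cDNA was tagmented with Nextera XT and sequenced as paired-end reads of 75 bases. The authors used HISAT2 for mapping against GRCm38 and HTSeq for counting per Ensembl gene, and the deposited values are these raw counts. Software versions, annotation release and strand setting are not given in the sources used here. SMART-Seq HT primes cDNA with oligo-dT, so capture of rRNA, tRNA and precursor RNA depends on their A-rich ends.

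The members are all genes on MT. The members and gene lists were chosen with earlier results of these data known. Total counts were 18475118 to 22623578 per library. No pair of replicates was a duplicate: their counts gave a chi-square of 23.9 to 136 per degree of freedom. A replicate is 1 library, and p-values measure the spread between libraries. In the brain this spread lies between pools of 5 mice, and in blood between single mice.

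Each comparison was fitted on the whole table under R 4.3.3 by the quasi-likelihood test of edgeR 4.0.16, with TMM, filterByExpr and the libraries of its 2 groups. P-values were adjusted by Benjamini-Hochberg across every gene tested. The standard error is the log2 fold change over the square root of F. Where every library of a group had at most 3 counts, the fold is a bound against 3 counts per library. Shares of counts were compared by exact permutation tests. Mitochondrial transcripts were aligned to 141730 other transcripts of GENCODE M21 with BLAST 2.17.0, and alignments of at least 100 bases and 90% identity were kept, from 17 nuclear genes, 16 of them in the count tables. The scripts were tested on simulated counts. Gene symbols matched 53620 of 53801 identifiers; file starts were converted to 1-based positions. Named genes were all 15 mRNAs and rRNAs for the brain comparisons, the 3 of them with the largest difference between stroke and sham blood, the 5 tRNAs with the highest mean CPM with any tRNA that was a DEG in brain versus stroke blood, and the 2 DEGs with the smallest adjusted p of each nuclear list. A neural marker list (12 genes) had 5 to 7 genes at 0 in each group, and a lymphoid list summed to 347 to 580 CPM in the brain, 165 to 399.7 CPM in stroke blood and 225 to 470 CPM in sham blood. Of 9 listed nuclear copies 8 were found, and 7 were DEGs lower in the brain than in stroke blood, beside 7.86% of all genes. These were led by *Gm29216* and *Gm28437*. Among the 8, 2 genes, *Gm10076* and *Gm6768*, had no alignment to a mitochondrial transcript, so the 7 DEGs are not all aligned copies. DESeq2 1.42.0, other filters, scalings and samples were the alternatives. Python 3.11.15 wrote the tables and drew the figures.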

Additional observations from a re-analysis of the deposited data

How the results depend on the processing

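The lower mitochondrial share of the brain and the higher share of stroke blood kept their direction in all 13 alternatives of each comparison, including the 2 with other members that were chosen after seeing the data, and their exact permutation p could not fall below 0.1. For brain versus stroke blood, the count of 16 genes called was between 13 and 16 under all 17 alternatives. For brain versus sham blood, the count of 8 became 13 with DESeq2, 13 without a filter on low counts and 2 at an adjusted p below 0.01, and it ranged from 2 to 12 when each library was left out. For stroke blood versus sham blood, the count of 0 became 12 with DESeq2 and 13 without a filter, and it was 0 without each library in turn. The cause of these differences was not tested. Replicate numbers did not pair the libraries: the correlation of same-numbered deviations was between -0.073 and 0.075. With the number as a replicate block the counts were 16, 13 and 0 for the 3 comparisons. Shares of all genes called were computed only for the main fits and DESeq2.

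In brain versus sham blood, *mt-Tq*, which was not called, turned from -0.09 to 0.022 with library size scaling and to 0.018 with the block, and ranged from -0.46 to 0.26 when each library was left out. *mt-Te* ranged from -1.004 to 0.16. The median log2 fold change of the mRNAs ranged from -3.07 to -2.23, from -1.87 to -0.99 and from 0.88 to 1.48 in the 3 comparisons when each library was left out. Under the other alternatives it ranged from -2.78 to -2.07, from -1.45 to -1.10 and from 1.11 to 1.23. Scaling by library size only moved the median of all genes to 0.22 for brain versus stroke blood and to 0.13 for brain versus sham blood, from 0.06 and 0.01, and the direction of the mRNAs and rRNAs did not change with it. *mt-Nd3*, *mt-Nd4l*, *mt-Atp8* and 18 of the 22 tRNAs had too few counts in the brain or in all groups for a fold change to be fitted or read closely, and the cause of their low counts was not tested.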
